A study of Bos taurus with 2 samples.

Results

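CpG island shores are the flanks of CpG islands, the stretches of genome where CpG dinucleotides lie close together. Here an island was a run of at least 20 listed CpG sites on an autosome with no gap over 50 bp between neighbours, and its shore was every other site lying at most 2000 bp outside its nearest edge. Of 3124969 listed shore sites, 2625908 (84.0%) had at least 5 reads in both libraries and form the members described here. They made up 11.4% of the 23108714 autosomal sites that passed the same minimum, of 27203217 listed in all. The 75844 autosomal islands had a median of 31 CpG sites and 447 bp. Because neighbours up to 50 bp apart belong to the island, the nearest member lay 51 bp from an edge.

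Sperm was taken from Bull1 and Bull2, monozygotic twins of the Holstein breed for which the study recorded different semen quality, and the labels name no treatment. According to the study's methods, frozen semen of both bulls was taken at the same adult age. Each bull had 1 library of whole-genome bisulfite sequencing (WGBS), in which unmethylated cytosines are converted and methylated ones are still read as cytosine. With 1 library per bull there is no replicate, so every test and interval here covers counting error only and compares 2 libraries, and differences between bulls, semen samples and libraries cannot be told apart.

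In mammalian cells most CpG sites carry a methyl group, while many CpG islands, above all those at promoters, are kept free of it. The shore is where the unmethylated state of such an island gives way to the methylated state of the surrounding genome, and in sperm many of these low zones are wider than in somatic cells. Shores have been studied widely because much of the variation in methylation between tissues falls there and not inside islands.

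The study designed bisulfite-sequencing primers for 1 window that lies wholly in a shore, at PSMD3, which codes for a subunit of the proteasome's regulatory particle. They are shown because, of 8 assay windows that the study listed with coordinates, this is the one that holds shore members, while 6 lie inside islands. Both are given 5′ to 3′ in lower case, are written for bisulfite-converted DNA and carry no capitals because no part of them is singled out.
PSMD3 window, forward: tattttggtttttgatgtgaagaag
PSMD3 window, reverse: aacccaaaaattaaatccaaatctc
The window was chr19:40960276-40960430 in build UMD3.1, and the study's annotation put it in the promoter of the gene. It held 10 CpG sites, 629 to 783 bp from the edge of an unmethylated island at chr19:40961059-40962025. Site levels ran from 10.5% to 42.9% in Bull1 and from 40% to 62.5% in Bull2, and Bull1 was the lower library at all 10 sites. Of the reads summed over these 10 sites, 23.3% were methylated in Bull1 (40 of 172, exact Clopper-Pearson 95% interval 17.2% to 30.3%). In Bull2 54.0% were methylated (122 of 226, 47.2% to 60.6%). A read over several of the sites counts at each, so both intervals are too narrow. The study picked this window among regions it had called as different between these same libraries, so these values are a description. Over all 44 members of that shore, the pooled level was 43.9% in Bull1 and 45.3% in Bull2, and the mean of site levels was 32.9% and 38.5%.

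Shore sites stood between islands and open genome in level, and Bull1 was the more methylated library in them. The methylation level of a group of sites is given in 2 ways, as methylated reads over all reads (pooled level) and as the mean of site levels, in which each site counts once. The pooled level of shores was 56.4% in Bull1 and 54.2% in Bull2, a difference of 2.20 points with a 95% counting half-width of 0.0184 points. The mean of site levels was 69.9% (SD over sites 35.9) in Bull1 and 67.3% (SD 34.8) in Bull2, a difference of 2.65 points. Both pairs of values put Bull1 above Bull2. The gap between the pooled level and the site mean moved with a small set of very deep sites. The 7190 members in the top 0.1% of site coverage in either library, called the deepest sites here, were 0.274% of the members and held 17.6% of shore reads in Bull1 and 18.0% in Bull2. Their pooled levels were 25.5% and 24.6%. Without them the pooled level of shores was 63.03% in Bull1 and 60.7% in Bull2, and the site means were 70.03% and 67.4%.

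The difference between the libraries was smaller in shores than in the open genome. More than 4 kb from any island, the pooled levels were 84.2% in Bull1 and 80.2% in Bull2, a difference of 4.03 points. The shore difference was thus lower by 1.83 points, which the counting error (95% half-width 0.0193 points) does not span. By the mean of site levels it was lower by 1.28 points. The size of this value depended on how islands were defined, from -0.698 points with gaps of at most 100 bp and -0.948 points with islands of at least 10 CpG sites to -3.22 points with gaps of at most 25 bp, and the shore difference itself ran from 0.837 points (25 bp) to 3.43 points (100 bp). Sites 2001 to 4000 bp from an edge differed by 3.79 points, and island sites by -0.541 points in pooled reads against 1.31 points in the mean of site levels. The shore difference was above 0 in 29 of 29 autosomes and below the difference beyond 4 kb in 29 of 29, by pooled level, by site mean, and by pooled level without the deepest sites. Autosomes of the same libraries are not replicates. The pooled shore difference was highest on chromosome 24 (3.08 points, 70.5% against 67.4%) and lowest on chromosome 1 (1.31 points, 34.6% against 33.2%). Chromosome 1 also held 1278 of the deepest members against 74 on chromosome 24, and without them its difference was 2.12 points. Both ends of this order changed without the deepest sites, to chromosome 25 (2.95 points) and chromosome 8 (1.77 points), and by site mean the lowest was also chromosome 8 (1.99 points).

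Site by site, the libraries were close in shores. Most members were in the same state in both libraries: 52.4% had a level of 80% or more in both and 17.8% a level under 20% in both. In 183 members (0.00697%) Bull1 was at 80% or more while Bull2 was under 20%, and in 133 (0.00506%) it was the other way round. The shares of such opposite sites were not set beside those outside shores, and their depth was not examined. Whether shores hold more or fewer of them than other sites was not tested. Across the 2625908 members Pearson's r between the libraries was 0.935, against 0.961 inside islands, 0.775 at 2001 to 4000 bp and 0.820 beyond 4 kb. It differed with the state of the island, defined below. Without the deepest sites it was 0.957 in shores of unmethylated islands, 0.901 in those of intermediate and 0.568 in those of methylated ones. The r of all members describes sites that share 2 libraries and a wide range of levels, and sites are not replicates.

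The shape of a shore depended on the state of its island. Islands were sorted by the pooled level of their own sites over both libraries, below 20% (unmethylated), 20% to under 80% (intermediate) and 80% or more (methylated). Of all islands, 32984 were unmethylated (43.5%), 8860 intermediate (11.7%) and 29906 methylated (39.4%), and 4094 had no site with enough reads. Their shores held 1061308, 257231, 1220466 and 86903 members.

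**Figure D1:**
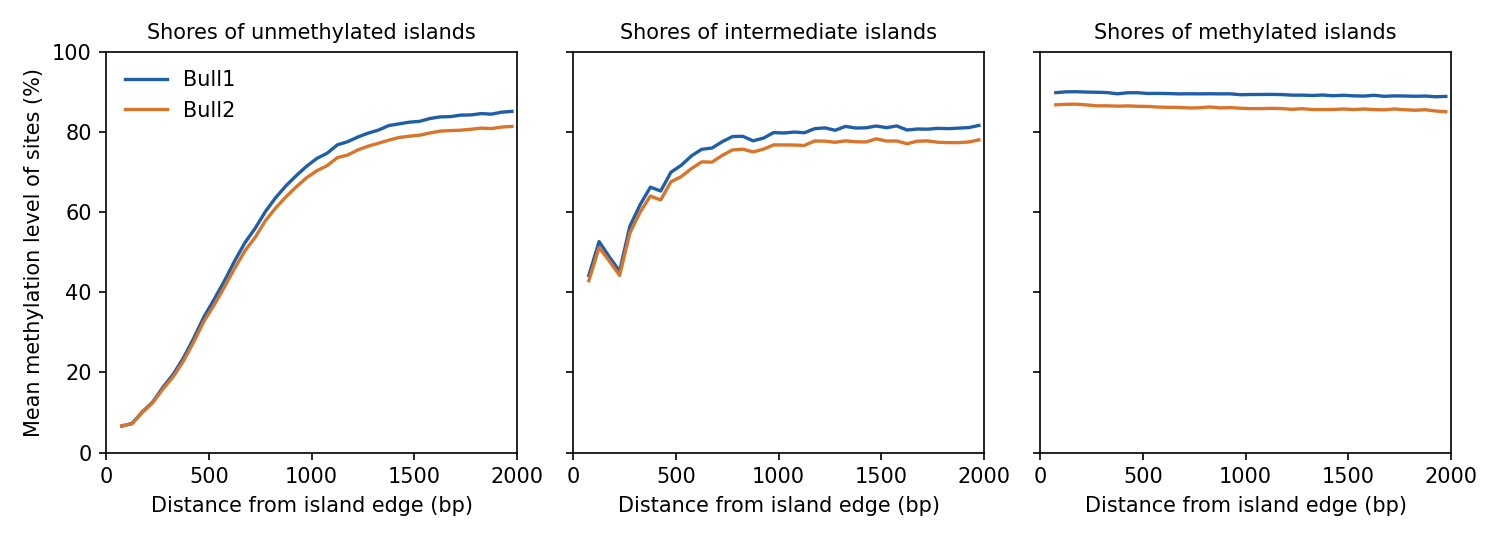
Mean methylation level of sites (y axis, %) in 50-bp steps of distance from the island edge (x axis, bp) for Bull1 (blue) and Bull2 (orange), in shores of unmethylated, intermediate and methylated islands, without the deepest sites. Around unmethylated islands the level climbed from 6.58% to 85.1% in Bull1 and from 6.71% to 81.3% in Bull2, while around methylated islands it stayed between 88.7% and 89.97% in Bull1 and between 84.97% and 86.9% in Bull2.

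Around unmethylated islands the level rose steadily outward. At 51 to 100 bp the mean of site levels was 6.64% in Bull1 and 6.77% in Bull2. At 301 to 500 bp it was 25.8% and 25.01%, and at 501 to 750 bp 47.0% and 45.2%. At 1501 to 2000 bp it was 84.0% and 80.4%, close to the site means of 84.5% and 80.6% beyond 4 kb. Without the deepest sites and in 50-bp steps, the level rose in 37 of 38 steps in either library and was first at 50% or more from 651 bp on in both. The last 5 CpG sites inside these islands had a site mean of 4.80% in Bull1 and 4.70% in Bull2, so the low level of the island continued into the inner shore. Without the deepest sites, members of these shores just inside the outer limit (1951 to 2000 bp) had a site mean of 85.1% in Bull1 and 81.3% in Bull2, and sites just outside it (2001 to 2050 bp) had 85.03% and 81.2%.

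The rise was made of sites that moved from one extreme to the other as well as of sites in between. The share of sites with a level below 5% was 64.5% in Bull1 and 65.2% in Bull2 at 51 to 100 bp, and 2.79% and 2.85% at 1501 to 2000 bp. The share at 80% or more went from 0.470% and 0.418% to 81.4% and 70.8%. In the outer shore the libraries thus had near equal shares of unmethylated sites and unequal shares of highly methylated ones. The SD of site levels was widest where the mean crossed the middle, 38.9 points in Bull1 and 37.7 in Bull2 at 501 to 750 bp, and 12.6 and 12.8 points at 51 to 100 bp.

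**Figure D2:**
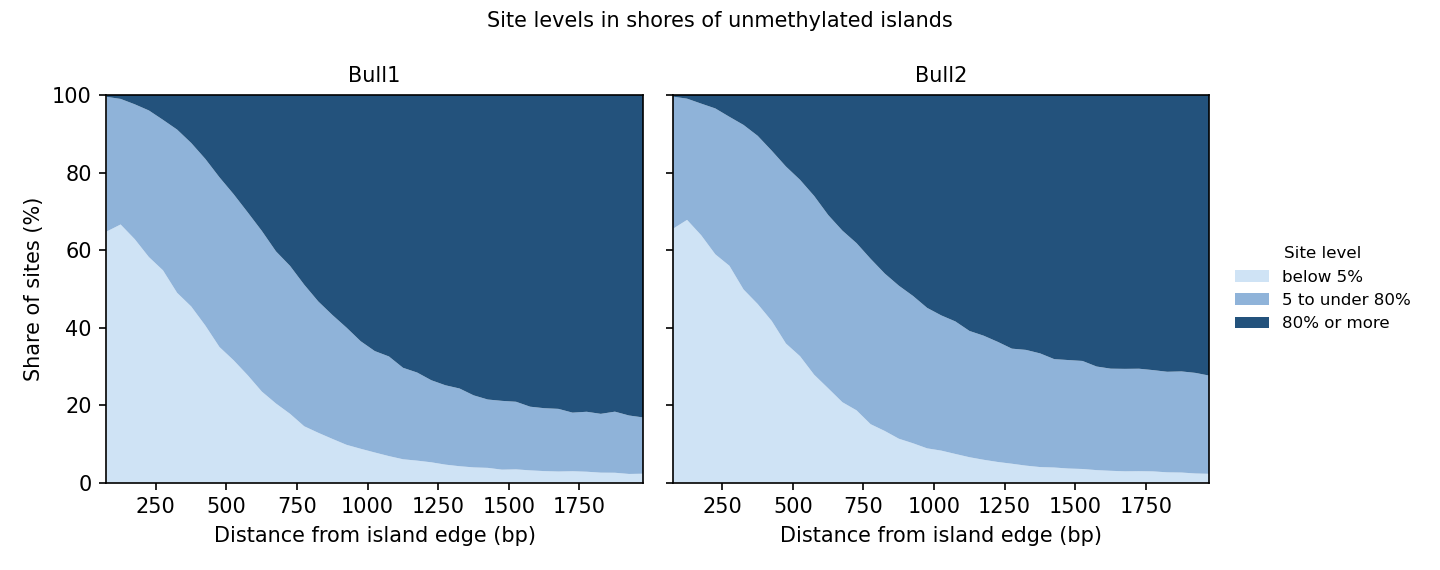
Share of sites (y axis, %) with a level below 5%, 5% to under 80%, and 80% or more by distance from the edge of unmethylated islands (x axis, bp, 50-bp steps) in Bull1 (left) and Bull2 (right), without the deepest sites. The class below 5% was smaller in the outermost step than in the innermost, from 64.8% and 65.5% of sites at 51 to 100 bp to 2.29% and 2.25% at 1951 to 2000 bp.

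Shores of methylated islands showed no such slope. The mean of site levels was 89.7% in Bull1 and 86.7% in Bull2 at 51 to 100 bp and 88.9% and 85.4% at 1501 to 2000 bp. Shores of intermediate islands began in the middle, at 43.6% and 42.4%, and ended at 80.6% and 77.2%, below the other 2 classes at that distance. Their pooled levels at 1501 to 2000 bp were only 58.1% and 55.0%. Of the 7190 deepest members, 4088 lay in these shores, 2988 at unmethylated islands and 56 at methylated ones. Around unmethylated islands the site means of the left and right flanks in Bull1, without the deepest sites, differed by at most 0.691 points in any distance bin.

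At equal local CpG density the level still differed with the place of a site. Among sites with 3 to 5 CpGs within 100 bp on either side, and without the deepest sites, the mean of site levels in Bull1 was 20.9% within 500 bp of an unmethylated island, 83.0% at 1001 to 2000 bp, 89.0% in shores of methylated islands and 85.4% beyond 4 kb. In Bull2 the values in that order were 20.2%, 79.4%, 85.3% and 81.4%. At this density, sites near an unmethylated island were the low ones in both libraries. These islands were sorted by their low level in the same 2 libraries, so the values are a description. Within 500 bp of them the level also fell with density. With 1 to 2 CpGs the site mean was 33.6% in Bull1 and 32.3% in Bull2, and with 16 or more it was 4.36% and 4.26%.

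The difference between the libraries grew with distance around unmethylated islands. In 50-bp steps without the deepest sites, the site-mean difference, Bull1 minus Bull2, went from -0.127 points next to the edge to a highest value of 3.75 points, and it was above 0 in 38 of 39 steps. Around methylated islands it stayed between 3.02 and 3.83 points at every distance. In the innermost bin of unmethylated islands (51 to 100 bp) the pooled level was 11.1% in Bull1 and 12.2% in Bull2, which differed by -1.08 points with a half-width of 0.0563 points, and by -1.18 points without the deepest sites. There the mean of site levels differed by only -0.131 points, and by -0.127 points without the deepest sites. The sign in this bin changed with island size. Without the deepest sites, the site means differed by -0.631 points for islands of 20 to 29 CpG sites and -0.0695 for 30 to 49. For 50 to 99 and for 100 or more they differed by 0.247 and 0.266 points. The pooled differences in that order were -1.47, -1.11, -0.108 and 0.0634 points. The 2 measures parted beyond that bin too. Without the deepest sites, the pooled level was the lower in Bull1 in every 50-bp step out to 300 bp, and over 51 to 500 bp the pooled difference was -0.168 points against 0.361 points by site mean.

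**Figure D3:**
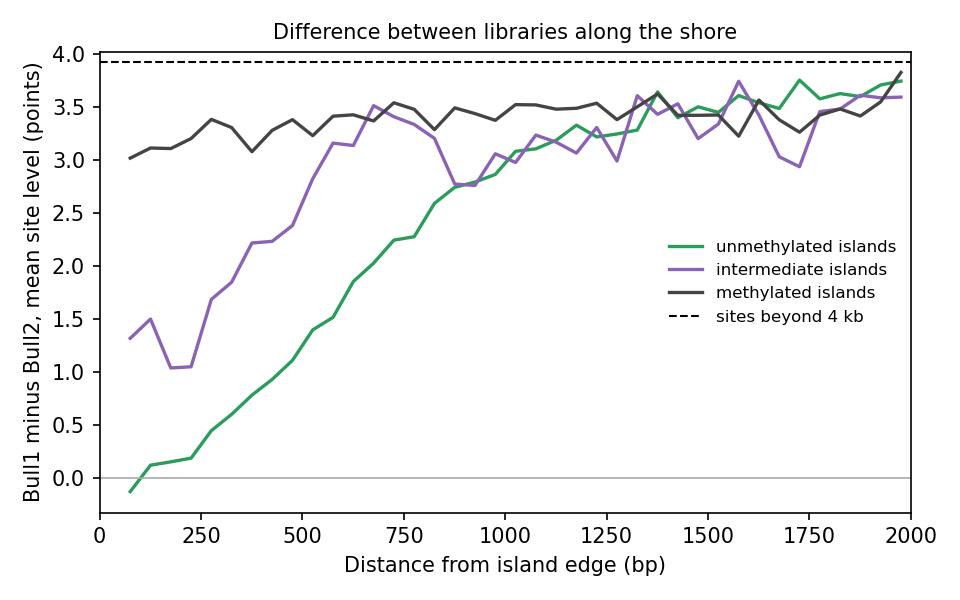
Bull1 minus Bull2 in mean site level (y axis, points) by distance from the island edge (x axis, bp, 50-bp steps) in shores of unmethylated (green), intermediate (purple) and methylated (black) islands, without the deepest sites. The dashed line marks the difference of sites beyond 4 kb, 3.93 points, and the shores of unmethylated islands rise towards it from -0.127 points.

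Shore sites were also set beside sites beyond 4 kb of the same level and depth, with 12 to 20 reads in both libraries (491754 of the 2625908 members). With 12 to 20 reads in both libraries and a level of 80% to under 95% over both, 269057 shore sites had a site mean of 90.5% in Bull1 and 86.6% in Bull2, a difference of 3.93 points. The 2171404 sites beyond 4 kb in the same class differed by 4.32 points. At 60% to under 80% the differences were 5.28 points in shores and 6.02 points beyond 4 kb, and below 20% they were 0.0144 and 0.0291 points. Shores of unmethylated and of methylated islands both differed by 3.93 points at 80% to under 95%, but by 4.61 and 6.37 points, in that order, at 60% to under 80%, and by 0.314 and 0.711 points at 20% to under 40%. At an equal level and depth the differences of all shores and of sites beyond 4 kb were closer to each other than over all sites. That of all shores together was the lower in every level class, with 0.460 against 1.10 points at 20% to under 40%. Below 20% counting error spanned the values of both groups. There the pooled differences were 0.0143 points in shores and 0.0424 beyond 4 kb, with half-widths of 0.0452 and 0.0461 points. At 60% to under 80%, however, the difference of methylated islands' shores was above the value beyond 4 kb. The part that the level of sites has in the smaller shore difference was not tested.

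At the depth of these libraries, few single shore sites differed by more than counting error. Fisher's exact test (two-sided) was run on the reads of each site and adjusted over all 23978882 sites tested. At an unadjusted p of 0.05 or less, 38225 shore sites (1.46%) were higher in Bull1, against 2.53% of all sites tested, and 9635 (0.367%) were lower, against 0.346% of all. Beyond 4 kb these shares were 2.97% and 0.325%. The shares grew with depth: over the 457462 members with at least 20 reads in both libraries, 3.09% were higher in Bull1 and 0.915% lower, against 4.28% and 0.406% beyond 4 kb. Around unmethylated islands the share higher in Bull1 grew from 0.319% at 51 to 100 bp to 2.39% at 1501 to 2000 bp, while the share lower fell from 0.868% to 0.281%. Within 300 bp of these islands, sites lower in Bull1 outnumbered those higher, but not at every island size. Without the deepest sites, for islands of 20 to 29 CpG sites, 112 sites (0.444%) were higher and 390 (1.54%) lower at 51 to 100 bp. At 201 to 300 bp there were 129 (0.521%) and 223 (0.900%). For islands of 50 to 99 CpG sites, also without the deepest, there were 24 (0.120%) and 30 (0.149%) at 51 to 100 bp. At 201 to 300 bp there were 124 (0.429%) and 82 (0.284%). Depth was unequal too: mean coverage in Bull1 at 51 to 100 bp was 40.8 reads around the smaller islands and 14.7 around the larger. At 12 to 20 reads and a level below 20%, 0.169% of sites in shores of unmethylated islands were higher in Bull1 and 0.177% lower. The part of depth in these shares was not tested. With 12 to 20 reads in both libraries, 1.40% of shore sites were higher and 0.317% lower, against 2.04% and 0.325% beyond 4 kb.

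At a false discovery rate of 0.05 (Benjamini-Hochberg), 33 shore sites passed, against 82 of all sites tested (0.000342%). All 33 were higher in Bull1, and 28 of them were among the deepest sites, with a median difference of 5.39 points over the 33. They lay at 13 islands on 8 chromosomes, and 18 of them were on chromosome 14. Such depth (a median of 5258 reads in Bull1 and 3312 in Bull2) lets a small difference pass. With the deepest sites left out and p adjusted again over the remaining sites, 4 shore sites passed, against 11 of all sites tested. Differences of 30 points or more were found at 4 of the 33. On chromosome 3, at positions 53472891, 53472903 and 53472910, Bull1 had 85.7%, 100% and 97.7% and Bull2 39.2%, 64.3% and 36.6%, next to an island with no site of enough reads. On chromosome 19, at position 33854502, Bull1 had 56.3% of 32 reads and Bull2 4.92% of 122. This site lies in the shore chr19:33853308-33855191, which as a whole was lower in Bull1 by pooled level (-29.9 points).

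The place where the level crossed 50% was measured shore by shore. For each shore of an unmethylated island with at least 5 members, the boundary was the middle of the nearest 5 consecutive members whose summed reads were at least 50% methylated. Of 46368 such shores, 37001 reached it within the members of the shore in Bull1, 36887 in Bull2 and 36553 in both. The median distance was 608 bp (quartiles 399 and 874) in Bull1 and 621 bp (407 and 894) in Bull2. The boundary was at the same site in 58.5% of shores, nearer to the island in Bull1 in 24.97% and nearer in Bull2 in 16.5%, and it lay within 100 bp in 79.1%. The mean of Bull2 minus Bull1 was 13.5 bp, and at fixed levels of 30% and 70% it was 6.51 bp and 30.2 bp. That direction depended on the threshold: with each library held to 0.5 of its own level beyond 4 kb (42.1% and 40.1%), the mean was -5.12 bp and the medians were 550 bp and 547 bp. The crossing was therefore farther out in Bull2 at a fixed level and not at a level scaled to each library.

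**Figure D4:**
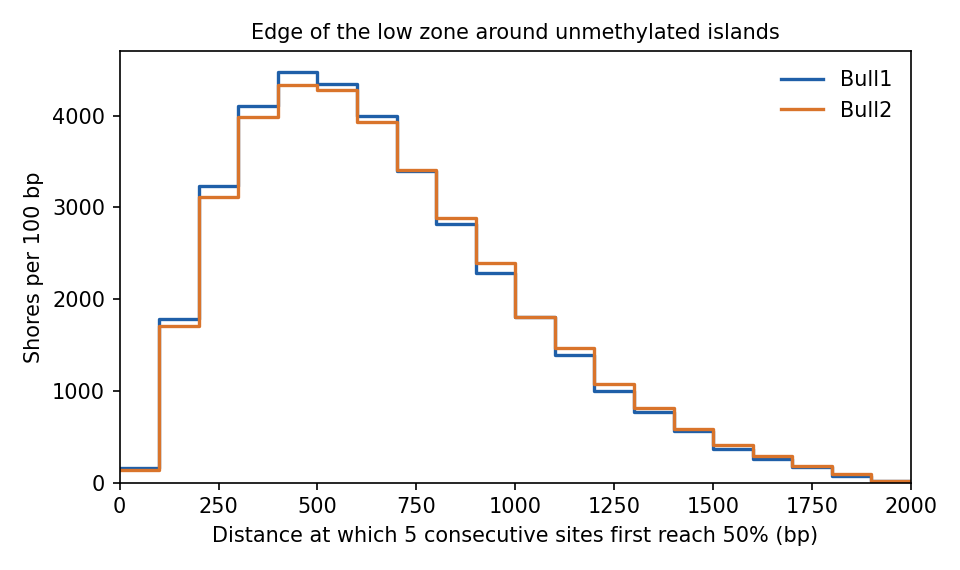
Number of shores of unmethylated islands (y axis, per 100 bp) by the distance at which 5 consecutive sites reached 50% (x axis, bp) in Bull1 (blue) and Bull2 (orange). The medians over shores that reached it in both libraries were 608 bp and 621 bp, and the 2 distributions lie almost on each other.

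Among shores that reached 50% in both libraries, the median boundary lay farther out around larger islands. The medians in Bull1 and Bull2 were 551 bp and 565 bp for islands of 20 to 29 CpG sites, 575 bp and 587 bp for 30 to 49, 638 bp and 649 bp for 50 to 99, and 669 bp and 684 bp for 100 or more. Shores that reached 50% in neither library are left out of these medians, and they were unequally spread, 3944 of 12390 shores in the smallest class and 848 of 7504 in the largest. The step from 20% to 60% took a median of 249 bp in Bull1 (35844 shores) and 262 bp in Bull2 (35540 shores). The distances of the same shore in the 2 libraries followed each other (Pearson's r 0.905 over 36553 shores). Between the 2 sides of the same island r was 0.283 in Bull1 over 11937 islands, with a median gap of 246 bp between sides. The libraries were measured at the same member sites of each shore and the 2 sides at different ones, so these r are not on equal terms. Both r describe shores of the same 2 libraries. A few shores stayed low in all their distance bins. Among shores of unmethylated islands, 34311 had members at 1501 to 2000 bp. Of these, 274 (0.799%) were under 20% in both libraries in every distance bin that held members. The 3 of them with the most members were chr2:22488276-22490172 (87 members, pooled level 2.33% in Bull1 and 0.781% in Bull2), chr16:52971996-52973738 (79 members, 4.83% and 4.23%) and chr18:51360191-51361872 (79 members, 0.850% and 0.842%). Gene annotation of this build was not used here, so no gene is named for them.

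Counted as whole units, most shores were higher in Bull1. Of 120700 shores with members, 50932 had at least 20 members and a mean coverage of at least 10 and at most the maximum in both libraries. Their median pooled difference was 2.90 points (quartiles 0.141 and 5.52), and Bull1 was higher in 76.01%. By island class Bull1 was higher in 64.7% of shores of unmethylated islands, 77.4% of intermediate and 88.3% of methylated ones. Over 20 points, 46 shores were higher in Bull1 and 5 lower.

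These large shore differences mostly shrank when each site was counted once. The 5 largest pooled differences were at chr23:27488375-27490277 (31.7 points), chr4:69385072-69386012 (31.1), chr12:36733034-36734857 (28.5), chr12:21413731-21415625 (26.4) and chr6:71276699-71278596 (24.98), all at unmethylated islands. With each site counted once, the differences of these shores in the same order were 7.06, 7.02, 9.78, 15.5 and 3.74 points. Pooled over only the sites with at least 10 reads in both libraries, they were 28.3, 27.5, 19.6, 6.91 and 9.79 points. In the shore on chromosome 23, the mean distance of reads from the edge was 1102 bp in Bull1 and 688 bp in Bull2, so Bull1 had more of its reads in the methylated outer part, and in all 5 shores the reads of Bull1 lay farther out on average. Within 500 bp that shore had 0.459% and 1.40%, at 501 to 1000 bp 48.9% and 44.8%, and at 1001 to 2000 bp 93.9% and 81.1%.

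The shores lowest in Bull1 showed the same except on chromosome 19. Pooled differences were -29.9 points at chr19:33853308-33855191, -22.5 at chr5:98702507-98704317, -21.6 at chr9:81967865-81969634, -21.6 at chr8:7019323-7021159 and -20.5 at chr22:358002-359742. With each site counted once they were -20.3, 1.35, -1.40, -2.52 and -2.70 points, and pooled over sites with at least 10 reads -29.9, -21.8, -23.6, -1.75 and -10.8 points. In the shore on chromosome 5, Bull1 was the higher library in each distance bin, with 1.20% against 0% within 500 bp, 3.39% against 0% at 501 to 1000 bp and 88.8% against 88.0% at 1001 to 2000 bp, while the pooled level was 19.5% against 42.0%. The mean distance of its reads was 623 bp in Bull1 and 987 bp in Bull2, and reads of Bull1 lay nearer to the edge in 4 of the 5 shores. Only the shore on chromosome 19 kept a difference over 20 points by both measures. There Bull1 was the lower library at 34 of 45 sites and the higher at 5, one of which, position 33854502, was the only adjusted call in that shore. The levels at 1001 to 2000 bp were 37.6% and 72.2%, and the mean coverage was 22.0 reads in Bull1 and 62.6 in Bull2. The part of that unequal depth in the difference was not tested. These shores were chosen by the reads that give their values, so the values are a description.

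**Figure D5:**
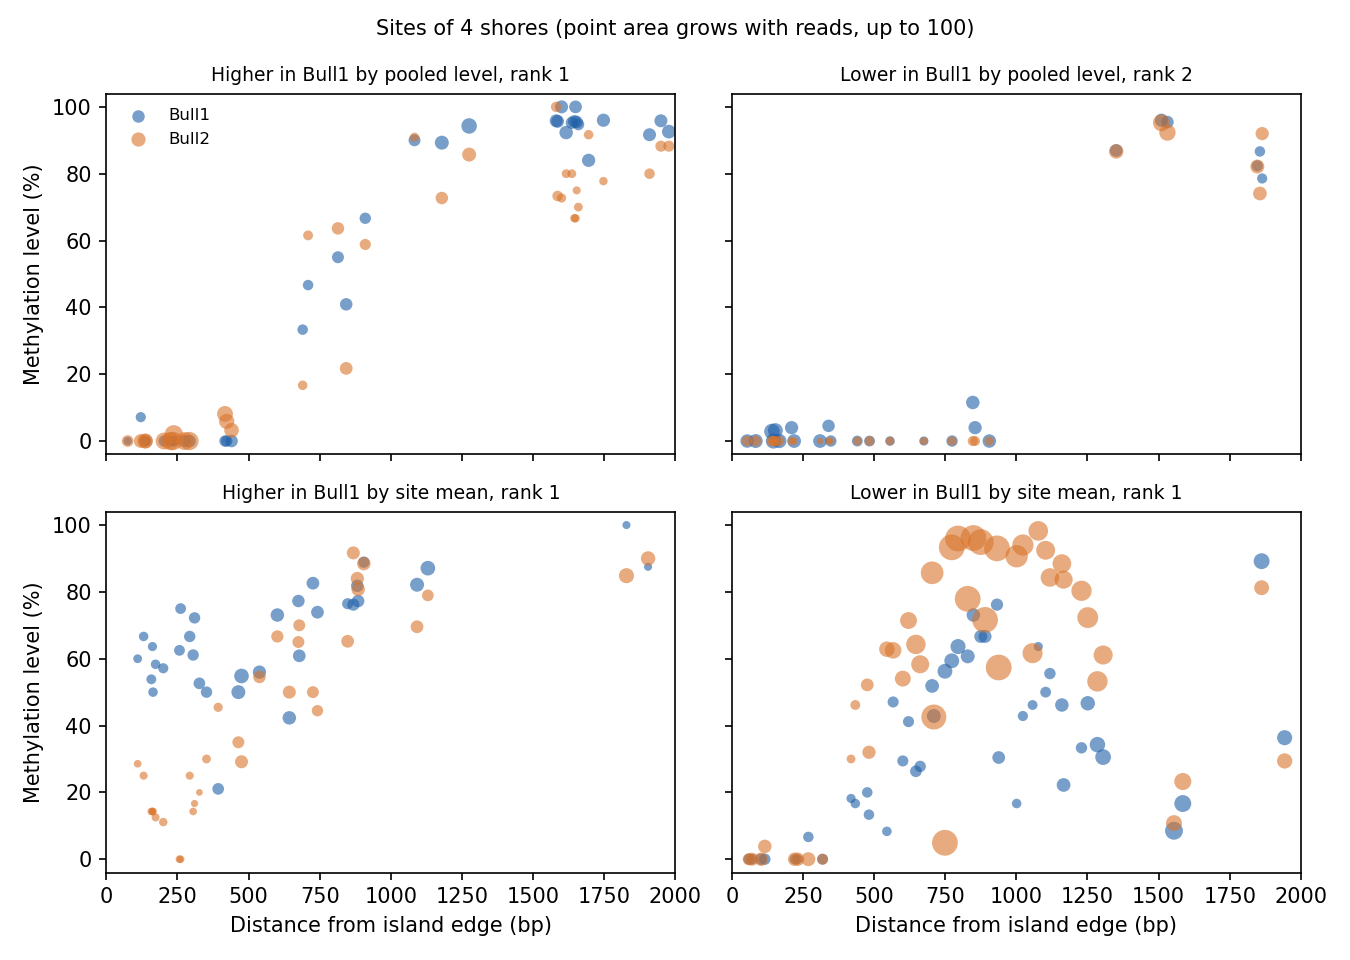
Methylation level of each site (y axis, %) by distance from the island edge (x axis, bp) in 4 shores for Bull1 (blue) and Bull2 (orange), with point area growing with reads. Mean site differences were 7.06 points (upper left, with the libraries apart mainly in the outer part), 1.35 (upper right), 22.1 (lower left, apart mainly near the edge) and -20.3 (lower right, apart mainly in the middle of the shore).

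Ranked by the mean of site differences, a ranking added after the values above were seen, the median over the 50932 shores was 2.57 points (quartiles 0.509 and 4.84) and Bull1 was higher in 80.3%. Over 10 points, 1057 shores were higher in Bull1 and 40 lower. Over 20 points there was 1 shore in either direction, against 46 and 5 by pooled level. The sign of the 2 measures differed in 8883 shores (17.4%). The shore highest in Bull1 was chr20:11812031-11813825, where the mean of site levels was 66.6% in Bull1 and 44.5% in Bull2 and Bull1 was higher at 26 of 33 sites, with 5 to 9 reads per site in Bull2 over the inner 327 bp. Its pooled levels were 66.4% and 57.7%. It was followed by chr21:52194915-52196792 (73.0% and 53.2%) and chr29:2247067-2248904 (86.9% and 67.1%), all 3 at intermediate islands. In that order, the pooled levels of their islands in Bull1 and Bull2 were 31.4% and 58.5%, 60.6% and 54.4%, and 62.2% and 55.6%. The island on chromosome 20 was thus the lower in Bull1, unlike its shore. The lowest in Bull1 after the shore on chromosome 19 were chr18:38326228-38326797 (29.98% and 48.2%), at an unmethylated island, and chr17:74292384-74293171 (75.97% and 93.7%), at a methylated one. These shores had 10.97 to 19.03 reads per site in Bull1 and 12 to 16.7 in Bull2.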

How the data were processed

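Per the labels and the study's methods, the authors trimmed and filtered reads, mapped the rest to the bovine build UMD3.1 by Bismark (bowtie2, default parameters) and dropped duplicates. The deposited tables list each CpG site with its methylation level as a fraction (methylated reads over all reads) and with the counts of methylated, unmethylated and all reads, without normalization. Whether reads of both strands were joined, and whether positions count from 0 or 1, is not given in the sources used here, and positions are printed as listed.

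Here all values came from the counts, with Python 3.11.15, numpy 2.4.6, pandas 2.3.3, scipy 1.17.1 and numba 0.67.0. Coverage summed over listed sites was 544424736 (Bull1) and 499287038 (Bull2), where a read over several sites counts at each. Mean coverage of listed sites was 20.0 and 18.4 reads. The study reported a greater average read depth for Bull2 than for Bull1, the reverse order. Shore members had a median of 14 reads (quartiles 10 and 21) in Bull1 and 13 (9 and 19) in Bull2, so the level of a single site is coarse and averages over many sites carry the comparison. Sites needed 5 reads in both libraries, without a maximum unless stated. Intervals of pooled differences are normal 95% intervals on read counts. Each site was tested by Fisher's exact test with Benjamini-Hochberg adjustment over all sites, X included. The functions were tested on simulated data. Shores named by pooled difference were the 5 highest and 5 lowest. They had at least 20 members and a mean coverage of at least 10, up to the 99.9th percentile of site coverage. The 3 low shores with the most members had to meet only that coverage maximum. Of these, the one on chromosome 2 had a mean coverage of 8.86 reads in Bull1. The members and lists were chosen with earlier results of these data known. Alternatives changed the coverage limits, weighting, depth, island definition and boundary rule. Reads of neighbouring sites overlap, so intervals are too narrow. Gene annotation and sequence of the files' build were not used here.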

Additional observations from a re-analysis of the deposited data

How the results depend on the processing

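With 1 library a bull there is only 1 twin pair, so no test over pairs was possible and no library can be left out. Bull1 stayed above Bull2 in shores, and shores stayed below the sites beyond 4 kb in difference, under all 12 alternatives for each. The cause of the shifts was not tested. The shore difference of 2.20 points became 2.17 with at least 1 read, 1.25 with 20 reads, 2.32 without the deepest sites, 2.26 after thinning Bull1 to the depth of Bull2, 3.20 and 1.49 with islands of at least 10 and 40 CpG sites, 0.837 and 3.43 with gaps of at most 25 and 100 bp, 2.33 for shores with no other island within 4 kb, and 2.65 (2.66 without the deepest) by site mean. Relative to sites beyond 4 kb, -1.83 points became -1.87 with 10 reads, -2.73 with 20, -1.73 without the deepest, -1.76 thinned, -0.948 and -2.52 with 10 and 40 CpG sites, -3.22 and -0.698 with the gaps, -1.70 for lone shores, and -1.28 (-1.27 without the deepest) by site mean. The boundary gap of 13.5 bp became 11.7 and 16.5 with 3 and 10 sites, 6.51 at 30%, 30.2 at 70%, 18.0 with 10 reads, and -5.12 at each library's own level. Sites higher in Bull1 went from 1.46% to 3.09% with 20 reads (beyond 4 kb 4.28%), 2.04% with 10 CpG sites and 1.17% with 40. Sites lower went from 0.367% to 0.915% with 20 reads (beyond 4 kb 0.406%) and 0.302% with 10 CpG sites. The 33 adjusted calls became 4 without the deepest sites. With 10 reads, 5 of the 10 shores named by pooled difference moved beyond counting error (to 19.6, 6.91, 9.79, -1.75 and -10.8 points). Among named shores, the one on chromosome 5 turned to 1.35 points by site mean, and with 10 reads the low shores on chromosomes 16 and 18 turned to -0.0494 and -0.0539 points. The low shore on chromosome 2 went from 1.55 to 0.102 points with 10 reads, which left 16 of its 87 members. The own-level boundary, the site mean without the deepest sites and the ranking by site mean were chosen after seeing the data.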

Other observations

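Shores of islands on the X chromosome, which the definition above leaves out, had 49163 sites with enough reads in both libraries, the deepest left out. The mean of their site levels was 55.0% in Bull1 and 52.9% in Bull2, a difference of 2.09 points, and the share of sites below 5% was 22.3% and 22.5%. In autosomal shores, also without the deepest sites, the site means were 70.03% and 67.4%, and the shares below 5% were 12.9% and 13.1%. Of X islands 9.93% were methylated, against 39.4% of autosomal islands, and 47.0% were unmethylated, against 43.5%. These are shares of all islands, including those with no usable site of their own. Such islands were 5.40% of autosomal islands, and on X their share was not counted. Within classes, the gap in site mean was smaller at unmethylated and methylated islands but near that of all shores at intermediate ones. Shores of unmethylated islands had site means of 41.8% and 40.2% on X against 48.5% and 46.6% on autosomes, and those of methylated islands 87.02% and 83.4% against 89.4% and 86.1%. Shores of intermediate islands had 54.1% and 52.6% against 68.6% and 66.1%. On X, shores of unmethylated, intermediate and methylated islands held 22707, 7042 and 10080 sites. The rest of the 49163 lay at islands with no usable site of their own.

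Autosomal shores with another island within 4 kb on that side held 761307 members, with a site mean of 71.0% in Bull1 and 68.6% in Bull2 and a difference of 2.37 points. The pooled level was far lower, 44.4% and 43.0%, at a mean coverage of 29.3 and 27.7 reads and a median of 12 and 11. These shores are thus another place where reads were unevenly spread over the members. Of the 4094 islands with no usable site of their own, 3269 had shore members. Their shores also rose outward, but from a higher start than those of unmethylated islands. The site means in Bull1 and Bull2 went from 27.3% and 26.3% at 51 to 100 bp to 84.3% and 80.7% at 1501 to 2000 bp.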
